A study of Coccomyxa subellipsoidea C-169 with 6 samples.

Results

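The protein kinase genes of a single-celled green alga, Coccomyxa subellipsoidea C-169, were followed in 6 RNA-seq libraries. The genes were chosen by the protein names in the deposited files, which had to contain Pkinase, kinase-like protein, protein kinase, serine/threonine kinase, MAP kinase or receptor-like kinase. Names with phosphatase, cyclin, aurora, mitotic, checkpoint or cell division were left out. This gave 185 of the 9490 listed genes. The rule reads names and no expression value, but it was set with earlier results of these data known. Of the 6 libraries, 3 came from wild-type cultures (WT) and 3 from cultures whose genotype is given as the overexpressor CsubMADS1 OX (labelled OX). All 6 were stationary-phase cultures collected 3 hours before the dark phase, and each group held 3 biological replicates. The labels used here name neither the promoter that drives the transgene nor the number of transformed lines, so a change particular to 1 line and an effect of the transgene cannot be told apart.

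Protein kinases move a phosphate group from ATP onto serine, threonine or tyrosine residues of other proteins, and protein phosphatases take it off again. Cascades such as the mitogen-activated protein kinases (MAP kinases) relay signals from one kinase to the next, while others answer to a messenger (calcium, cyclic GMP) or to nutrients (TOR, target of rapamycin). A transcript level says nothing of the phosphorylation state or activity of the enzyme.

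The names were mostly generic. "Kinase-like protein" covered 100 of the 185 genes, "Protein kinase domain-containing protein" 27, "Pkinase-domain-containing protein" 19 and "Non-specific serine/threonine protein kinase" 13. MAP kinase names were given to 5 genes, and 32 of the 185 models were marked as fragments. A further 6 genes, named ribokinase-like, entered through the words "kinase-like protein", although ribokinases phosphorylate sugars rather than proteins. Without them 179 genes remained, of which 20 were higher and 16 lower in the comparison below.

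The libraries held 3771499 to 5336375 counts, and a floor of 3 counts stood for 0.562 to 0.795 CPM (counts scaled to a common library total). The 1 gene with a MADS-box name, COCSUDRAFT_67545, was at 86.8 ± 7.72 CPM in WT and 60.7 ± 6.996 CPM in the OX-labelled libraries (SD, n = 3), with no overlap and an adjusted p of 0.0535 in edgeR's quasi-likelihood test. The mean was thus lower under the OX label, but the difference did not pass. The gene was picked by its product name alone, and whether it is CsubMADS1 was not established. Its level therefore cannot show whether the labels are right, and every direction below is that of the labels. The second principal component (19.6% of the variance) set OX replicate 3 off from OX replicates 1 and 2, so counts without it stand beside the main ones.

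As a group the kinases took a similar share of the counts in both sets of cultures, 1.55% ± 0.0752 in WT and 1.47% ± 0.0675 in the OX-labelled libraries (SD, n = 3). Their summed level was 15151 ± 697 CPM in WT and 15019 ± 85.8 CPM in the OX-labelled libraries (SD, n = 3), and the single libraries held 15741, 14382 and 15330 CPM in WT and 14943, 15112 and 15001 CPM in the OX-labelled set. The groups overlapped. In bulk RNA, a change in the mix of cells and a change in RNA per cell cannot be told apart. The 10 most abundant kinases gave 26.7% of the summed level in WT and 30.7% in the OX-labelled libraries. Among the 165 genes that passed the filter on low counts, the median WT level was 53.5 CPM, beside 48.4 CPM over all 8575 tested genes. The median gene span, introns included, was 3.62 kb for the kinases and 2.71 kb over all genes with a protein name in the annotation. Per kb of gene span the order turned, with a median of 11.1 CPM per kb for the tested kinases and 17.2 CPM per kb for all tested genes. The span is not the transcript length, so a per-kb level is lower in a gene with long introns.

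Of the 165 tested kinases, 21 were higher in the OX-labelled libraries, 17 were lower and 127 did not pass (edgeR quasi-likelihood test, Benjamini-Hochberg adjusted p under 0.05 over all tested genes). Over all 8575 tested genes 15.6% were called higher and 8.98% lower, or 24.6% in either direction. The kinase shares were 12.7% and 10.3%, or 23.0% in all, near this background. The median log2 fold change of the kinases was -0.11, beside -0.003 over all genes, with 73 kinases above 0 and 92 below. The groups did not overlap for 64 kinases (38.8%), against 42.9% of all tested genes. A fitted change of at least 2-fold was found in 15 higher kinases and 3 lower ones, where 8.86% and 2.01% of all genes met that rule. Without OX replicate 3, 25 kinases were higher and 31 lower, beside 18.9% and 14.3% of all genes. Leaving out WT replicates 1, 2 and 3 in turn gave 18, 23 and 18 kinase calls, leaving out OX replicate 1 gave 18, and leaving out OX replicate 2 gave 43. Over all genes the same fits called 1050, 1289, 1250, 1411 and 2158 of 8611 to 8644 tested genes, in that order. With all 6 libraries 2107 genes and 38 kinases were called.

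**Figure D1:**
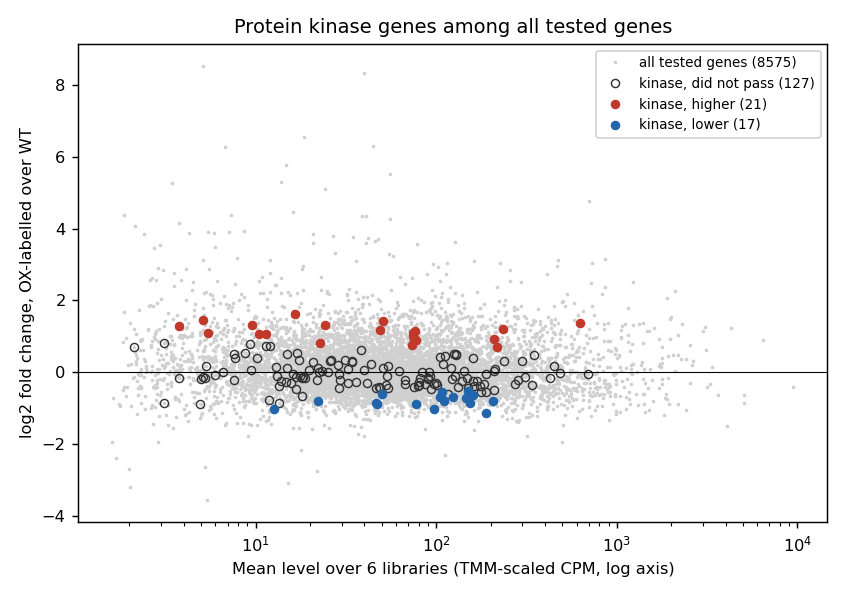
The log2 fold change of each tested gene (vertical axis) against its mean level over the 6 libraries (TMM-scaled CPM, log axis), with all 8575 tested genes in grey and the 165 tested kinases on top, in red (21 higher), blue (17 lower) or open (127 did not pass). The kinases lie within 1.62 of 0 on the log2 scale, while 264 genes lie beyond that.

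Kinase changes were moderate in size. The largest fitted change of any tested kinase was 1.62 on the log2 scale, and 262 other genes (12.4% of the called genes) were called with a larger one. Of the 127 kinases that did not pass, 104 had a 95% interval of the fold change (unadjusted) that lay within 2-fold in both directions, and 23 had an interval that reached beyond it. Calls made in all 6 fits that left out 1 library numbered 15 for the kinases, 11 higher and 4 lower, and 10.5% of all tested genes met the same rule.

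Of the 5 genes with MAP kinase names, 3 were higher, 0 lower and 2 did not pass, and the median log2 fold change was 0.90. Over all tested genes 15.6% were called higher and 8.98% lower. The set is small and was not tested, and 1 of its calls was made in every fit that left out 1 library. COCSUDRAFT_11831 was at 40.4, 47.4 and 55.1 CPM in WT and at 101, 112 and 106 CPM in the OX-labelled libraries. Its lowest OX-labelled library lay well above its highest WT library, and the rise (1.16 on the log2 scale, with SE 0.18 and an edgeR adjusted p of 0.00111) was called whichever library was left out. COCSUDRAFT_47764 was at 48.5, 63.2 and 49.6 CPM in WT and at 100.4, 77.6 and 122 CPM in the OX-labelled libraries, again without overlap. The log2 fold change was 0.90 (SE 0.21, edgeR adjusted p = 0.00982), and the call was lost without WT replicate 1 (adjusted p = 0.0710) and without WT replicate 3 (adjusted p = 0.0637). Mitogen-activated protein kinase 7, COCSUDRAFT_31328, was a low gene at 4.02, 5.05 and 7.33 CPM in WT and 10.6, 11.7 and 18.6 CPM in the OX-labelled libraries. This rise had a log2 size of 1.32 (SE 0.33, edgeR adjusted p = 0.0140), and the call was lost without WT replicate 1 (adjusted p = 0.0814) and without WT replicate 2 (adjusted p = 0.0612).

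The most abundant MAP kinase was not among those that rose. COCSUDRAFT_54284 was at 199.9, 206 and 206 CPM in WT and 227, 197 and 228 CPM in the OX-labelled libraries, a fold of 1.07 with a 95% interval of 0.833 to 1.37. COCSUDRAFT_14113 was at 15.9, 15.0 and 18.5 CPM in WT and 15.7, 13.4 and 18.6 CPM in the OX-labelled libraries, a fold of 0.969 (95% interval 0.683 to 1.37). Both sets overlapped. In neither case does the interval reach 2-fold.

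Neither the kinases named for a messenger nor SRK2J passed with all 6 libraries. The calcium-dependent protein kinase COCSUDRAFT_46159, of a family that reads calcium directly through its own EF-hands in plants, was at 93.5, 103 and 91.5 CPM in WT and 87.3, 74.0 and 93.0 CPM in the OX-labelled libraries (fold 0.884, 95% interval 0.680 to 1.15). SRK2J, COCSUDRAFT_29725, belongs by its name to the SnRK2 kinases of plants. Its WT libraries held 111, 116 and 97.6 CPM and its OX-labelled libraries 166, 150.4 and 134 CPM, without overlap, but the edgeR adjusted p was 0.0660 (fold 1.39, 95% interval 1.07 to 1.81). It passed without OX replicate 3 (adjusted p = 0.0160). Of the 2 cGMP-dependent kinases, COCSUDRAFT_35741 was at 31.2 ± 2.29 CPM in WT and 27.1 ± 10.1 CPM under the OX label, and COCSUDRAFT_36058 at 1.59 ± 0.584 and 2.66 ± 1.49 CPM (SD, n = 3), near the floor. The second interval ran from 0.731-fold to 3.59-fold, so a 2-fold rise was not excluded.

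Other kinases with specific names did not pass either. TOR, COCSUDRAFT_30586, the kinase that couples growth to nutrient supply in eukaryotes, was at 174, 108 and 139 CPM in WT and 81.0, 79.6 and 119 CPM in the OX-labelled libraries. Only OX replicate 3 overlapped with WT, and the fold was 0.661 (95% interval 0.470 to 0.931, edgeR adjusted p = 0.0739). Without that library the log2 fold change was -0.81 and passed (adjusted p = 0.00543). RIO1, COCSUDRAFT_35076, which in yeast acts in the maturation of the small ribosomal subunit, was one of the most abundant kinases per kb of span, at 123 CPM per kb in WT. Its levels of 321, 311 and 289 CPM in WT and 301, 246 and 242 CPM in the OX-labelled libraries overlapped. The MUT9-related kinase COCSUDRAFT_13604, named after a histone kinase of Chlamydomonas, was at 173 ± 20.4 CPM in WT and 127 ± 15.7 CPM in the OX-labelled libraries (SD, n = 3), without overlap and with an edgeR adjusted p of 0.0912. The dual-specificity tyrosine regulated kinase COCSUDRAFT_12150 was at 14.9 ± 0.676 and 12.6 ± 0.862 CPM, an edgeR adjusted p of 0.460.

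**Figure D2:**
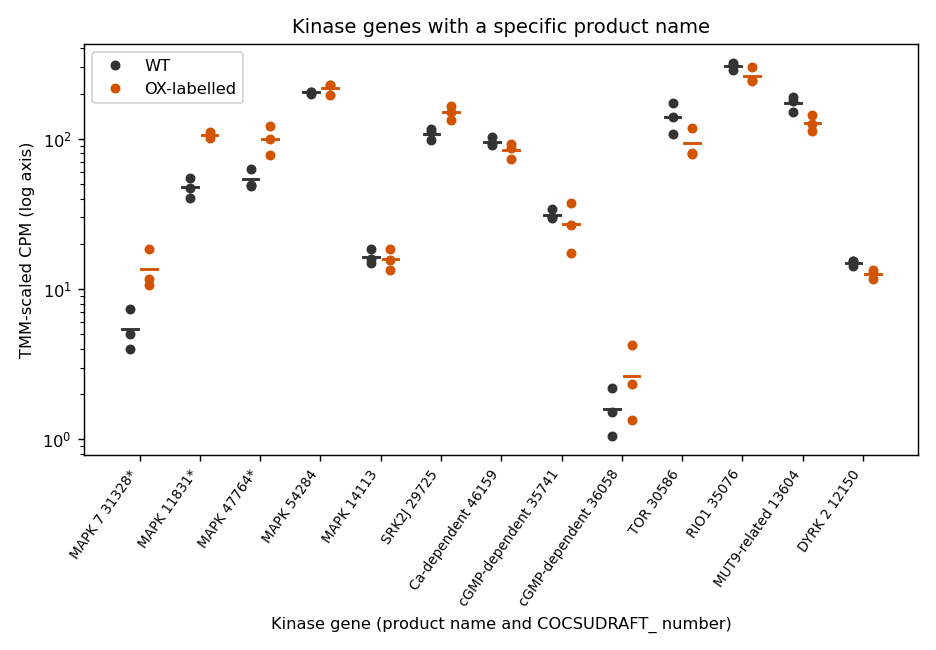
Level of 13 kinases with a specific product name in each library (points, TMM-scaled CPM, log axis), WT in black and OX-labelled in orange, with the group mean of 3 libraries as a bar and a star on genes past the threshold. In it 3 MAP kinases rose, and the most abundant MAP kinase, at 204 CPM in WT and 217 CPM in the OX-labelled libraries, overlapped between groups.

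The kinase with the largest rise in CPM became the most abundant one in the OX-labelled libraries. COCSUDRAFT_65450, a kinase-like protein, was at 336, 361 and 359 CPM in WT and 1009, 705 and 1007 CPM in the OX-labelled libraries. The lowest OX-labelled library lay far above the highest WT library, and the log2 fold change was 1.36 (SE 0.19, edgeR adjusted p = 0.000537). Per kb of span it stood at 114 CPM per kb in WT, and its OX-labelled mean of 292 CPM per kb was the highest of all kinases in those cultures. Other abundant kinases did not pass. COCSUDRAFT_54388, first in WT with 271 CPM per kb, was at 453 ± 21.5 CPM in WT and 405 ± 43.4 CPM under the OX label, and the kinase-like gene COCSUDRAFT_46477, first by CPM alone, at 706 ± 118 and 679 ± 79.8 CPM (SD, n = 3), both overlapping between groups. Of the 10 kinases with the highest WT level per kb, COCSUDRAFT_65450 was the 1 that passed. The kinase-like COCSUDRAFT_64904 was at 285, 287 and 298 CPM in WT and 419, 451 and 345 CPM under the OX label (edgeR adjusted p = 0.0631), and COCSUDRAFT_25912 at 241, 242 and 252 CPM against 176, 198 and 149 CPM (edgeR adjusted p = 0.0575). Neither gene overlapped between groups, although neither passed with all 6 libraries.

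Further rises were found in generic names. COCSUDRAFT_48923, a kinase-like protein, had the largest log2 fold change of all kinases, 1.62 (SE 0.26, edgeR adjusted p = 0.00122), from 9.05, 7.79 and 7.59 CPM in WT to 32.8, 22.9 and 19.6 CPM in the OX-labelled libraries. COCSUDRAFT_29803, a Pkinase-domain protein, went from 143, 129 and 157 CPM to 323, 265 and 394 CPM (log2 fold change 1.20, SE 0.19, edgeR adjusted p = 0.00120). COCSUDRAFT_52911, the shortest of the called kinases with a span of 1.24 kb, went from 36.4, 27.6 and 26.8 CPM to 87.1, 61.6 and 55.1 CPM (log2 fold change 1.17, SE 0.23, edgeR adjusted p = 0.00363). In these 3 genes the groups stood clear of each other and the call held whichever library was left out. The same was true of COCSUDRAFT_64486, which rose from 53.2 ± 3.17 to 98.2 ± 11.4 CPM, and of COCSUDRAFT_16775, a non-specific serine/threonine kinase that rose from 54.2 ± 2.57 to 91.9 ± 8.30 CPM (SD, n = 3).

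Some rises rested on particular libraries. COCSUDRAFT_12218 went from 2.73 to 7.53 CPM (edgeR adjusted p = 0.0196), COCSUDRAFT_11826 from 2.16 to 5.38 CPM (adjusted p = 0.0427), and COCSUDRAFT_46388 from 3.47 to 7.47 CPM (adjusted p = 0.0399), all without overlap. Each of these calls was lost in at least 4 of the 6 fits that left out 1 library, with adjusted p up to 0.1002, 0.153 and 0.166. COCSUDRAFT_54502, a non-specific serine/threonine kinase, rose from 6.78 ± 1.59 to 14.2 ± 2.84 CPM (SD, n = 3), and its call was lost without OX replicate 1, WT replicate 1 or WT replicate 2 (edgeR adjusted p = 0.0642, 0.0996 and 0.0864). COCSUDRAFT_45570 showed the widest spread among the OX-labelled libraries of the called kinases, with 117, 76.0 and 28.2 CPM against 24.9, 31.8 and 26.0 CPM in WT. OX replicate 3 lay within the WT range, the pooled log2 fold change was 1.42 (SE 0.40, edgeR adjusted p = 0.0245), and the log2 fold change was 1.801 without OX replicate 3 (adjusted p = 1.16e-05). Its call was lost in each of the other leave-out fits, with adjusted p from 0.0537 without OX replicate 2 to 0.112 without OX replicate 1.

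Counts by product name are read beside the 15.6% of all tested genes called higher and the 8.98% called lower. "Protein kinase domain-containing protein" had 6 members lower and 2 higher of 24 tested (median log2 fold change -0.25), and "Non-specific serine/threonine protein kinase" had 4 lower and 2 higher of 13 (median -0.37). "Kinase-like protein" had 3 lower and 8 higher of 83 (median -0.06), and "Pkinase-domain-containing protein" 3 lower and 4 higher of 19 (median 0.08). Without OX replicate 3 the lower members of these 4 names numbered 8, 7, 9 and 3, where 14.3% of all tested genes were called lower. The groups of names were not tested against each other.

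COCSUDRAFT_44045, a kinase-domain gene with a span of 22.4 kb, fell the furthest. Its WT libraries held 269, 282 and 225 CPM and its OX-labelled libraries 169, 109 and 72.4 CPM, which do not overlap (log2 fold change -1.14, SE 0.27, edgeR adjusted p = 0.00913). The next gene along the scaffold is COCSUDRAFT_54388, the kinase that was highest per kb in WT and did not pass. A pair of non-specific serine/threonine kinases fell in every leave-out fit. COCSUDRAFT_13495 went from 128, 123 and 139 CPM to 62.2, 83.4 and 45.5 CPM (log2 fold change -1.03, SE 0.22, edgeR adjusted p = 0.00598), and COCSUDRAFT_11403 from 66.0, 53.5 and 60.4 CPM to 32.6, 33.6 and 33.4 CPM (log2 fold change -0.85, SE 0.18, edgeR adjusted p = 0.00598). The OX-labelled libraries of the second gene lay close together, while those of the first were spread wider than its WT libraries.

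Among the Pkinase-domain proteins, COCSUDRAFT_37961 fell from 197 ± 29.3 to 109 ± 30.0 CPM and COCSUDRAFT_19187 from 60.6 ± 15.3 to 33.1 ± 4.18 CPM (SD, n = 3). Both calls were lost without OX replicate 1 (edgeR adjusted p = 0.0602 and 0.0574), without WT replicate 1 (0.0517 and 0.0717) and without WT replicate 3 (0.0643 and 0.0633). COCSUDRAFT_66437, a kinase-domain gene of 13.1 kb, fell from 152, 141 and 127 CPM to 71.4, 66.1 and 102 CPM (edgeR adjusted p = 0.0127), with adjusted p = 0.0548 without OX replicate 1 and 0.0602 without WT replicate 1. COCSUDRAFT_39340, also named for its kinase domain, was at 106, 90.3 and 106 CPM in WT and 42.0, 74.4 and 48.0 CPM under the OX label (log2 fold change -0.88, SE 0.22, edgeR adjusted p = 0.0146). The groups were apart, but the call was lost without OX replicate 1, WT replicate 1 or WT replicate 3 (adjusted p = 0.0634, 0.0514 and 0.0502). The low non-specific kinase COCSUDRAFT_21073 fell from 16.9 ± 4.11 to 8.34 ± 1.96 CPM (SD, n = 3), a call lost without OX replicate 1, WT replicate 2 or WT replicate 3 (edgeR adjusted p = 0.0915, 0.0618 and 0.0910). The ribokinase-like genes moved in both directions. COCSUDRAFT_66195 fell from 263 ± 15.6 to 149 ± 17.2 CPM (log2 fold change -0.82, SE 0.17, edgeR adjusted p = 0.00560) and COCSUDRAFT_61918 rose from 13.9 ± 1.91 to 34.6 ± 4.51 CPM (SD, n = 3).

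**Figure D3:**
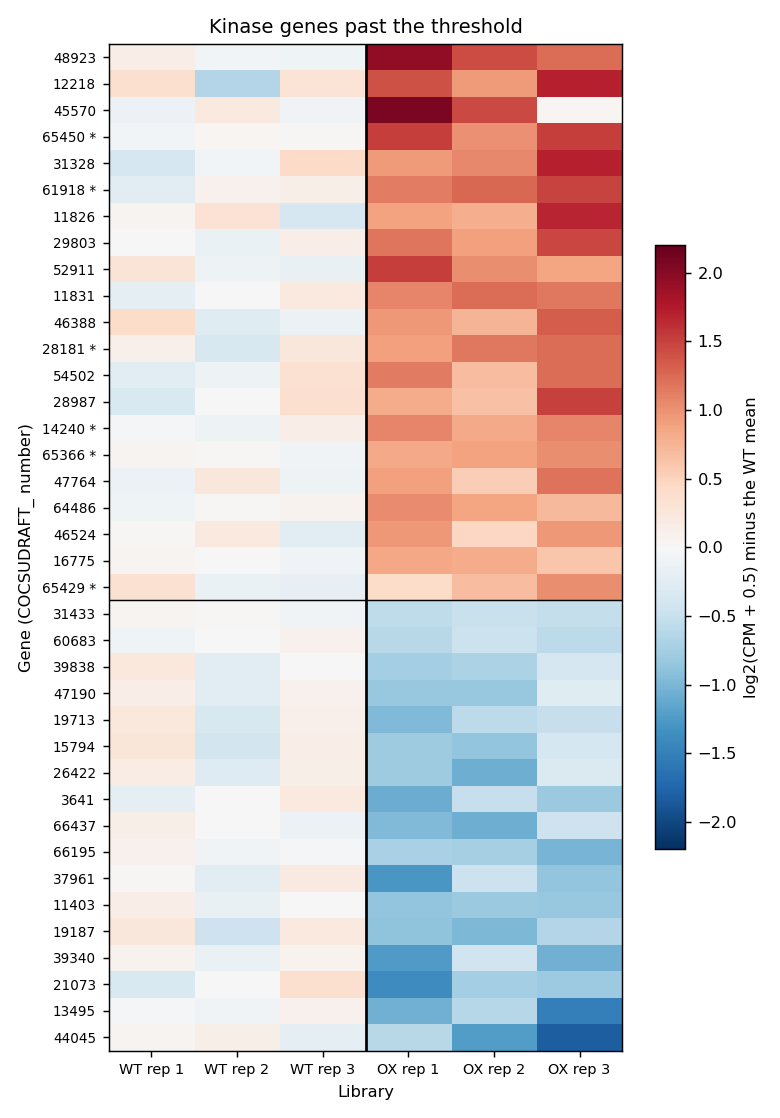
Level of the 38 kinases past the threshold in each library, as log2(CPM + 0.5) minus the gene's WT mean (colour), ordered by fold change, with 21 higher genes above the horizontal line and 17 lower ones below it. A star marks genes in the stretch of neighbours described in the text, and COCSUDRAFT_45570 is the higher gene whose OX replicate 3 is at the WT level.

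The kinases that rose were lower in WT than those that fell. The higher kinases had a median WT level of 30.3 CPM and the lower ones 130 CPM, and over all genes the called higher and called lower genes had medians of 34.8 and 98.3 CPM. Of the 27 tested kinases under 10 CPM in WT, 7 were higher and 0 lower, where 26.4% and 2.13% of all such genes were called. Of the 56 kinases at 100 CPM or more in WT, 4 were higher and 12 lower, where 12.5% and 16.5% of all such genes were called. The WT level also enters the fold change, and a gene low in WT can pass the filter through its OX-labelled libraries. Rises at low and falls at high WT levels are therefore favoured by the grouping itself, for kinases and all genes alike.

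The 20 kinases that the filter left untested had few counts, 17 of them named kinase-like proteins. All 20 had more counts in the OX-labelled libraries than in WT, 283 against 71 in sum, and 7 of them had 0 counts in every WT library. Of all 915 untested genes 57.3% had more counts in the OX-labelled libraries and 18.3% had 0 counts in WT. The summed level of the 20 genes was 5.63, 4.63 and 5.31 CPM in the WT libraries and 18.6, 13.001 and 32.7 CPM in the OX-labelled libraries. The groups did not overlap, and OX replicate 3 was the highest. Over all 915 untested genes the summed level was 369, 377 and 422 CPM in WT and 613, 571 and 646 CPM in the OX-labelled libraries. That sum also did not overlap between groups and was highest in OX replicate 3. COCSUDRAFT_57064 gave 19 of its 24 counts in OX replicate 3, with 0 in WT, while COCSUDRAFT_20652 held 8, 4 and 2 counts in the OX-labelled libraries and 0 in WT. These genes are too low for a statement on single members, and the set was not tested.

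Part of the rises lay side by side in the genome. An earlier analysis of the same libraries had found a stretch of 348 tested neighbouring genes, COCSUDRAFT_52946 to COCSUDRAFT_46926 in the gene order of the RefSeq assembly, in which 259 genes were higher and 1 lower, with a median log2 fold change of 1.01. It holds 8 kinases. Of them 6 were higher, among them COCSUDRAFT_65450 above, COCSUDRAFT_28181 (47.9 ± 10.2 to 102 ± 11.9 CPM), COCSUDRAFT_14240 (49.8 ± 4.70 to 99.8 ± 8.97 CPM), COCSUDRAFT_65366 (145 ± 7.43 to 275 ± 20.4 CPM), COCSUDRAFT_65429 (164 ± 35.2 to 268 ± 59.4 CPM; SD, n = 3) and the ribokinase-like COCSUDRAFT_61918. The other two, COCSUDRAFT_36058 and COCSUDRAFT_61879, had log2 fold changes of 0.70 and 0.23 and did not pass. Outside the stretch 15 kinases were higher and 17 lower of 157 tested (9.55% and 10.8%), with a median of -0.13. Over all 8227 tested genes outside it, 13.1% were higher and 9.35% lower, with a median of -0.03. All 3 MAP kinases that rose lie outside it, and the median log2 fold change of their neighbours was 0.00 for COCSUDRAFT_11831, 0.15 for COCSUDRAFT_47764 and 0.13 for COCSUDRAFT_31328. The part of gene position in these rises was not tested.

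**Figure D4:**
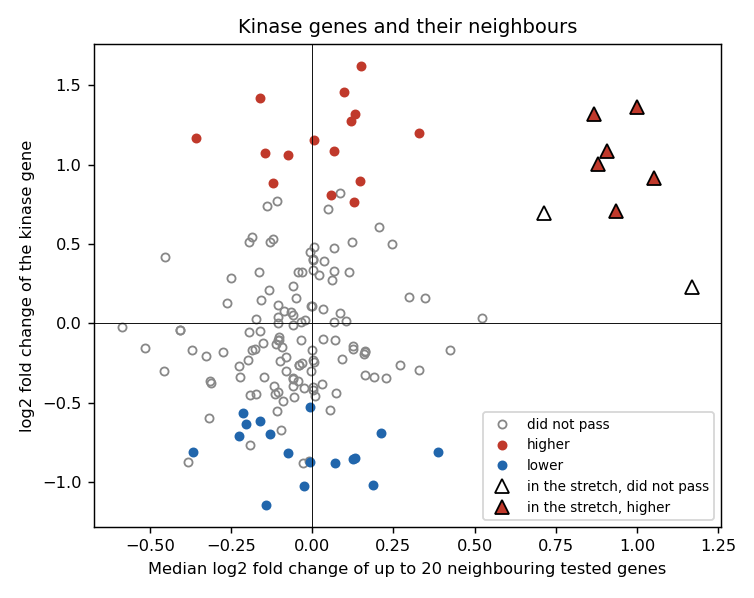
The log2 fold change of each tested kinase (vertical axis) against the median log2 fold change of its nearest tested neighbours, up to 10 on each side along the scaffold (horizontal axis). Triangles are the 8 kinases in the shifted stretch, of which 6 rose, and circles are the other kinases. Of the called kinases outside the stretch, neighbour medians run from -0.37 to 0.39.

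Genes of long span had a higher median in OX replicate 3 than in OX replicates 1 and 2. A set of 12 tested kinases spans 10 kb or more, and its median level relative to the WT mean was -0.34 and -0.43 on the log2 scale in OX replicates 1 and 2 but -0.03 in OX replicate 3. Over all 368 tested genes of that span the values were -0.24, -0.34 and 0.28. In WT replicates 1, 2 and 3 the long kinases were at 0.16, -0.12 and -0.10, and all long genes at 0.14, -0.14 and -0.01. Tested kinases of any span had medians of -0.14, -0.10 and 0.03 in OX replicates 1, 2 and 3. With all libraries 3 of the 12 long kinases were higher and 2 lower, and without OX replicate 3, 6 were lower. Of all 368 genes of that span 51 were higher and 44 lower with all libraries, and 115 were lower without OX replicate 3. The 6 kinases include TOR and COCSUDRAFT_65942, the longest kinase gene at 29.8 kb, which was at 244, 166 and 221 CPM in WT and 111, 126 and 196 CPM in the OX-labelled libraries (edgeR adjusted p = 0.111, and 0.00301 without OX replicate 3). What sets that library apart was not tested.

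The companion lists are also read beside the 15.6% of all tested genes called higher and the 8.98% called lower. Of 24 tested protein phosphatase genes, 7 were higher, 0 lower and 17 did not pass (median log2 fold change 0.15). Without OX replicate 3, 8 were higher and 1 lower, where 18.9% and 14.3% of all tested genes were called. Their summed level was 1522, 1554 and 1567 CPM in WT and 2137, 2119 and 2292 CPM in the OX-labelled libraries, which do not overlap. Subunits of phosphatase 2A, a major serine/threonine phosphatase of eukaryotes, were among them. The regulatory subunit COCSUDRAFT_46816 rose from 117 ± 11.7 to 291 ± 94.3 CPM (log2 fold change 1.31, SE 0.23, edgeR adjusted p = 0.00195), and the subunit B COCSUDRAFT_13997 from 58.7 ± 1.96 to 116 ± 22.8 CPM (SD, n = 3). Both these genes and the serine/threonine phosphatase COCSUDRAFT_35942 (125 to 250.4 CPM) lie in the shifted stretch. The summed level above includes these 3 genes, so its rise is not one of the whole list alike. Of all tested genes in the stretch 74.4% were called higher. Outside it, the protein phosphatases COCSUDRAFT_39232 and COCSUDRAFT_41730 rose by 0.98 and 0.96 on the log2 scale (edgeR adjusted p = 0.00294 and 0.00609).

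The single 14-3-3 gene, COCSUDRAFT_30298, whose product binds phosphorylated proteins, was far above every kinase. It rose from 1357, 1491 and 1191 CPM in WT to 2237, 2029 and 2335 CPM in the OX-labelled libraries (log2 fold change 0.71, SE 0.17, edgeR adjusted p = 0.0122), and the call was made in 4 of the 6 leave-out fits. Of 14 tested calcium sensors 3 were higher and 2 lower (21.4% and 14.3%). The EF-hand protein COCSUDRAFT_61872 rose from 59.7 ± 11.2 to 226 ± 60.2 CPM (SD, n = 3) and lies in the shifted stretch. COCSUDRAFT_56948, also named for an EF-hand domain, fell from 29.0 ± 4.58 to 14.4 ± 2.89 CPM (edgeR adjusted p = 0.00895). Calmodulin, COCSUDRAFT_23637, was at 1007 ± 141 and 806 ± 195 CPM (SD, n = 3) and did not pass. Of 7 two-component proteins 1 was higher and 3 lower (14.3% and 42.9%), and the histidine kinase COCSUDRAFT_7070, a kind of kinase with another fold, fell from 27.4 ± 6.27 to 11.6 ± 2.37 CPM (edgeR adjusted p = 0.00503). Neither of the 2 guanylate cyclase genes passed.

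Genes with cell-cycle names, which are not members and are not all kinases, were read beside the members. Among 26 tested genes named for cyclins, aurora kinases, mitosis or cell division, 7 were higher and 3 lower (26.9% and 11.5%, median 0.33), a list that also holds a ribosome-recycling factor caught by its letters. The aurora kinases COCSUDRAFT_46601 and COCSUDRAFT_47135 rose from 53.7 to 103 CPM and from 9.54 to 30.3 CPM (edgeR adjusted p = 0.00416 and 0.00389). The other tested aurora kinases, COCSUDRAFT_11573 at 4.47 and 4.73 CPM and COCSUDRAFT_64585 at 12.1 and 17.5 CPM in WT and under the OX label, did not pass (edgeR adjusted p = 0.880 and 0.106). Of the 82 other genes with kinase in their names, most of them metabolic, 12 were higher and 4 lower (14.6% and 4.88%, median 0.20). The methylerythritol kinase COCSUDRAFT_35952, of isoprenoid precursor synthesis, rose from 8.93 to 41.1 CPM and the glucokinase COCSUDRAFT_32768 from 47.6 to 184 CPM, and both lie in the shifted stretch.

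**Figure D5:**
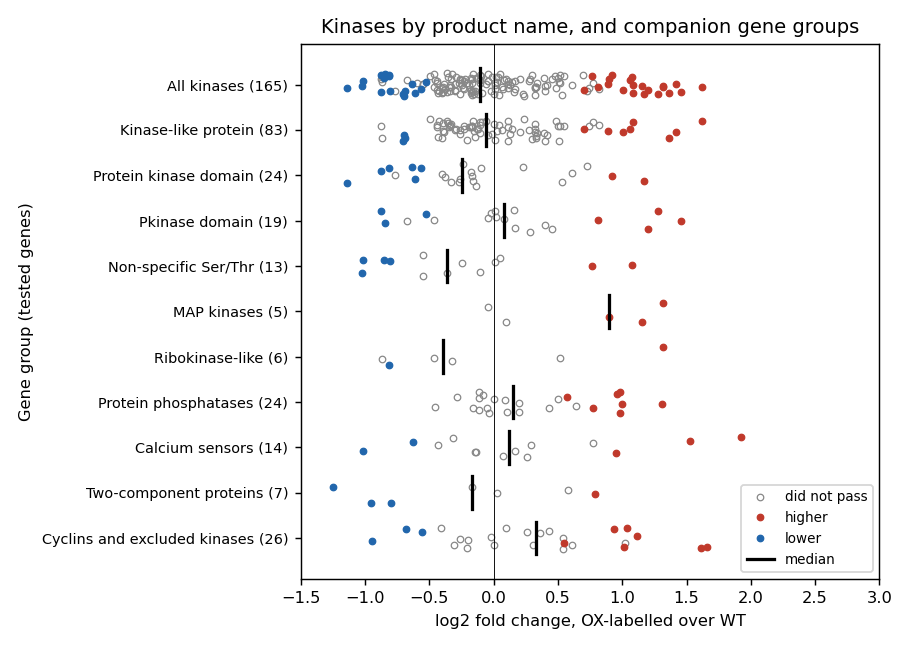
The log2 fold change of each tested gene (points) for the kinases by product name and for 4 companion groups, in red (higher), blue (lower) or open (did not pass), with the median as a black bar and the number of tested genes in brackets. The median of the 5 MAP kinases lies at 0.90 and that of all 165 kinases at -0.11.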

How the data were processed

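Stationary-phase cultures (3 WT, 3 labelled OX, grouped and numbered by sample titles) were profiled by RNA-seq from total RNA with a directional kit, per the labels' protocols. Tools listed in the submitters' processing notes are HTSeq, HISAT, Trim Galore and FastQC. Their versions, the genome build, the strand setting and the handling of multi-mapping reads were not given in the sources used here. Overlapping, antisense and closely similar kinase genes may share reads. Deposited values are the authors' counts for each gene, without normalization. No kinase sequence was used here. Each of the 9490 gene IDs was found in RefSeq's table for assembly Coccomyxa subellipsoidae v2.0, used for gene span and neighbours only, so levels per kb are per kb of span rather than of coding length.

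The test was that of edgeR 4.0.16, run in R 4.3.3 (filterByExpr, TMM scaling, robust quasi-likelihood F test, two-sided, Benjamini-Hochberg over 8575 genes, threshold 0.05). Levels are TMM-scaled CPM with SD over 3 libraries, SE was obtained by dividing the log2 fold change by the root of F, and 95% intervals are unadjusted. The biological coefficient of variation was 19.8%. An exact permutation test of 3 against 3 cannot go below 0.1 and was not used. No 2 libraries agreed within sampling noise (lowest chi-square per degree of freedom 6.97). Floors cover counting error only.

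Genes were named, in part, by a rule: the MADS-box gene, the 10 largest rises and 10 largest falls among called members whose groups did not overlap and whose higher mean reached 5 CPM, the 10 highest per kb in WT, the 2 lowest p of each subfamily and companion list, and 2 members per group with the widest replicate spread. Other kinases with specific names, the aurora kinases, further phosphatases and calcium sensors, and long, untested and stretch members were named after their values were seen. The members, lists and the stretch were chosen with earlier results of these data known. Alternatives were other scalings, filters, DESeq2 1.42.0, limma-voom of limma 3.58.1, the replicate block, each library left out, a threshold of 0.01 and glmTreat against 1.5-fold. Without ribokinase-like members and without the stretch were added after seeing the data. The fit was tested on simulated data.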

Additional observations from a re-analysis of the deposited data

How the results depend on the processing

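Kinase counts (21 higher, 17 lower) stayed within 1.5 times under other scalings, filters, DESeq2 and limma-voom. The same held without the ribokinase-like members (20 and 16) or the stretch (15 and 17). It also held with 9 genes added from outside the members, whose names hold kinase and a cell-cycle word (24 and 17). Among them are a regulatory subunit of cyclin-dependent kinases and the untested aurora kinases COCSUDRAFT_18552 and COCSUDRAFT_20154. The kinase counts were 6 and 0 under glmTreat against 1.5-fold, where 6.08% and 0.80% of all genes were called. There the companion lists kept 11 calls. At an adjusted p under 0.01 the kinase counts were 12 and 4, and the share of all genes is not given here. Leaving out 1 library gave 12 to 25 higher and 4 to 31 lower, beside 8.54% to 18.9% and 3.63% to 14.3% of all genes. For the companion lists it gave 24 to 55 calls against 43, and over all tested genes 1050 to 2859 calls against 2107. The median kinase log2 fold change was -0.0082 with the DESeq2 test, which keeps more low genes, against -0.11. The MADS-box gene passed under DESeq2 size factors (-0.52), library size alone (-0.58), upper-quartile scaling (-0.54), no filter (-0.55) and the DESeq2 test (-0.53), with adjusted p from 0.0295 to 0.168 over the alternatives other than glmTreat, where it was 1.00. Genes near 0 that never passed changed sign when 1 library was left out: COCSUDRAFT_46477 ranged from -0.16 to 0.055, COCSUDRAFT_14113 from -0.17 to 0.059, COCSUDRAFT_35741 from -0.50 to 0.032, COCSUDRAFT_61879 from -0.11 to 0.38 and COCSUDRAFT_11573 from -0.15 to 0.32. Same-numbered libraries did not deviate together (correlations -0.16, 0.15 and 0.06), and with the replicate block 20 kinases were higher and 16 lower, 35 of the 38 calls being shared. The causes were not tested. The comparison of kinase sequence motifs was not run. Depth limits statements on the 20 untested kinases.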
